A study of Mus musculus with 8 samples.

Results

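The corticotropin-releasing hormone (CRH) and urocortin family was followed across 4 nuclei of the mouse hypothalamus. Its members were the 7 genes *Crh*, *Ucn*, *Ucn2*, *Ucn3*, *Crhr1*, *Crhr2*, and *Crhbp*, chosen by name from the 20284 genes that could be named on the array. A total of 8 of the 55681 probes carried a RefSeq accession of one of these genes, 2 of them for *Crhr1* and 1 for each other gene. The nuclei were the arcuate nucleus (Arc), the ventromedial hypothalamus (VMH), the dorsomedial hypothalamus (DMH), and the lateral hypothalamus (LH), each cut out by laser microdissection and measured on 2 arrays. All samples came from untreated female mice of the C57BL/6 strain (C57BL/6J in the study's methods) at 3 months of age, and no group carried a transgene or a deletion. The methods name 2 mice and the labels do not tie arrays to mice, so p-values measure only the spread between these samples, which may be technical. The study compared the nuclei to find genes enriched in each of them, and its methods checked the dissection for neighbouring nuclei by quantitative RT-PCR of *Agrp*, *Nr5a1*, *Hcrt*, and *Crh*, the last as a marker of the paraventricular nucleus (PVN).

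CRH is a peptide best known from neurons of the PVN, from where it is released to the pituitary and drives the secretion of corticotropin and, downstream, of glucocorticoids. CRH acts mainly through the receptor CRHR1, whereas urocortin 2 and urocortin 3 prefer CRHR2 and urocortin 1 binds both. Both receptors couple to the stimulatory G protein and raise cyclic AMP, and the secreted CRH-binding protein takes up CRH and urocortin 1 and keeps them from the receptors.

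Signals are given as intensities scaled between arrays by each array's 75th percentile, and a level on an array counted as measured when the scanner software called the spot well above background. The lowest such signal lay between 79.3 and 132 on the 8 arrays, and a dimmer probe had no measured level. No member spot was saturated or carried an outlier mark. Over all tested probes, the 2 arrays of a nucleus correlated at 0.971 to 0.981 outside the LH and at 0.938 in the LH, and LH replicate 2 correlated more closely with DMH replicate 2, at 0.954, than with LH replicate 1. Every VMH marker probe (5 of 5) was highest in the VMH and differed among the nuclei, as did 5 of 6 Arc marker probes in the Arc. The same held for 4 of 5 DMH marker probes in the DMH and 4 of 7 LH marker probes in the LH. Of the other LH marker probes, 2, both of *Nptx2*, were called and highest in the VMH. The DMH markers, and some in the other lists, were first picked from these same arrays, so these counts are a description and no check of the dissection. Of 12 oligodendrocyte probes, 10 were called and highest in the LH, where their summed signal was 118952 to 127262 against 19285 to 48785 elsewhere, and its part in the LH levels below was not tested. Without scaling, the median difference of all tested probes was −0.46 on the log2 scale for the Arc minus the DMH, 0.33 for the DMH minus the LH, −0.26 for the Arc minus the VMH, −0.19 for the VMH minus the DMH, 0.13 for the VMH minus the LH, and −0.11 for the Arc minus the LH.

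Of the 8 member probes, 5 probes of 4 genes (*Crh*, *Crhbp*, *Crhr2*, and both *Crhr1* probes) were measured on both arrays of some nucleus and entered the fit of 28894 probes. All 5 passed the F-test over the 4 nuclei, beside 8.34% of all tested probes. A probe that entered the fit because it was bright in 1 nucleus and dim in another was bound to differ, so these counts are a description. No member reached 10 times the mean of each other nucleus, the enrichment criterion that 0.228% of the tested probes met. The highest and the lowest nucleus mean differed by 1.97 on the log2 scale for *Crhr2*, measured in every nucleus, against a median span of 0.65 over all tested probes. The lowest nucleus had no array well above background for *Crh*, *Crhbp*, and one *Crhr1* probe, and 1 such array for the other *Crhr1* probe, so their differences from it are given below with lower bounds or with that limit.

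**Figure D1:**
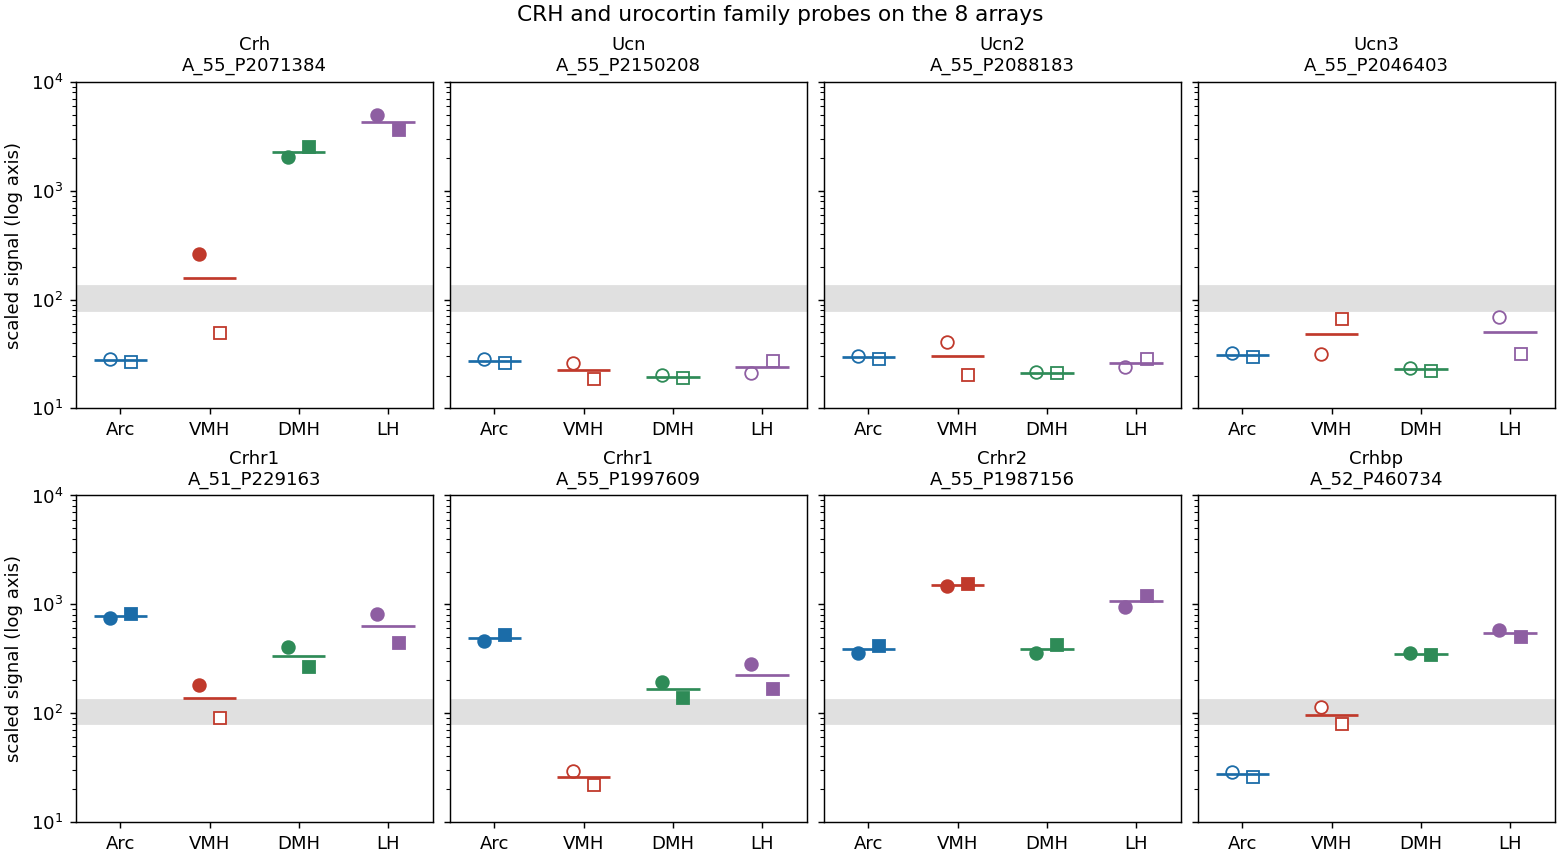
Scaled signal (log axis) of the 8 probes of the family on each array, with circles for replicate 1, squares for replicate 2, and a horizontal line at the mean of each nucleus. Open symbols were not well above background and the grey band spans 79.3 to 132, the lowest measured signals of the arrays: *Crh* lay above the band on all DMH and LH arrays, *Crhr2* on all 8, and the 3 urocortins on none.

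*Crh* encodes the founding peptide of the family. In the Arc, its probe gave signals of 28.7 and 26.8, neither well above background. In the VMH, it gave 265 on replicate 1, which was measured, and 49.4 on replicate 2, which was not. In the DMH, it gave 2026 and 2543 (2284 ± 366, SD, n = 2), and in the LH 4931 and 3623 (4277 ± 925, SD, n = 2). The DMH and LH arrays thus lay above every Arc and VMH array, the LH arrays above the DMH arrays, and the VMH arrays apart from each other. Since whole pieces of tissue were measured, fewer cells of a type and less RNA per cell cannot be told apart.

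The *Crh* level in the DMH exceeded that in the Arc by at least 20.1-fold (fitted log2 difference 6.36, 95% interval 4.73 to 7.98, adjusted p = 0.00936), and the level in the LH exceeded it by at least 37.4-fold (fitted log2 difference 7.25, 95% interval 5.63 to 8.88, adjusted p = 0.00239). Intervals are not adjusted for the number of probes, and a fitted difference from a nucleus with no measured level includes its background signal. Each bound sets the brighter nucleus against the lowest signals that could be measured on the arrays of the dimmer one. The intervals and p-values belong to the fitted differences, and the bounds were not tested. Against the VMH, the fitted difference of *Crh* was 19.9-fold for the DMH (log2 4.31 ± 0.69, SE, adjusted p = 0.0291) and 37.0-fold for the LH (log2 5.21 ± 0.69, SE, adjusted p = 0.00992). With VMH replicate 1 alone, on which the gene was measured, the differences were 8.58-fold and 16.0-fold (adjusted p = 0.0262 and 0.0106). Against VMH replicate 2 alone, on which it was not, they were at least 25.7-fold and 47.9-fold. The fitted differences from that array were 46.0-fold and 85.6-fold, which include its background signal. In both fits the lone VMH array was assumed to vary like the arrays of the other nuclei. The LH exceeded the DMH by 1.86-fold, which was not called (log2 0.90, 95% interval −0.73 to 2.52, adjusted p = 0.543).

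The Arc and the VMH were not called for *Crh* either, with a log2 difference of −2.04 and an adjusted p of 0.151, but without VMH replicate 2 the difference was −3.26 with an adjusted p of 0.0152, and without VMH replicate 1 it was −0.83 with an adjusted p of 0.326. With signals under the lowest measured signal of an array set to it, the difference was −0.43. The call between the Arc and the DMH was lost when Arc replicate 1, Arc replicate 2, DMH replicate 1, or DMH replicate 2 was left out (adjusted p of 0.0786, 0.0903, 0.0708, and 0.0672). The call between the VMH and the DMH was lost without either Arc array (0.0752 each), DMH replicate 1 (0.139), or DMH replicate 2 (0.171), and in a fit of the 4 arrays of these nuclei (0.0591). A fit of the 4 VMH and LH arrays likewise ended the call between the VMH and the LH, with an adjusted p of 0.0755.

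**Figure D2:**
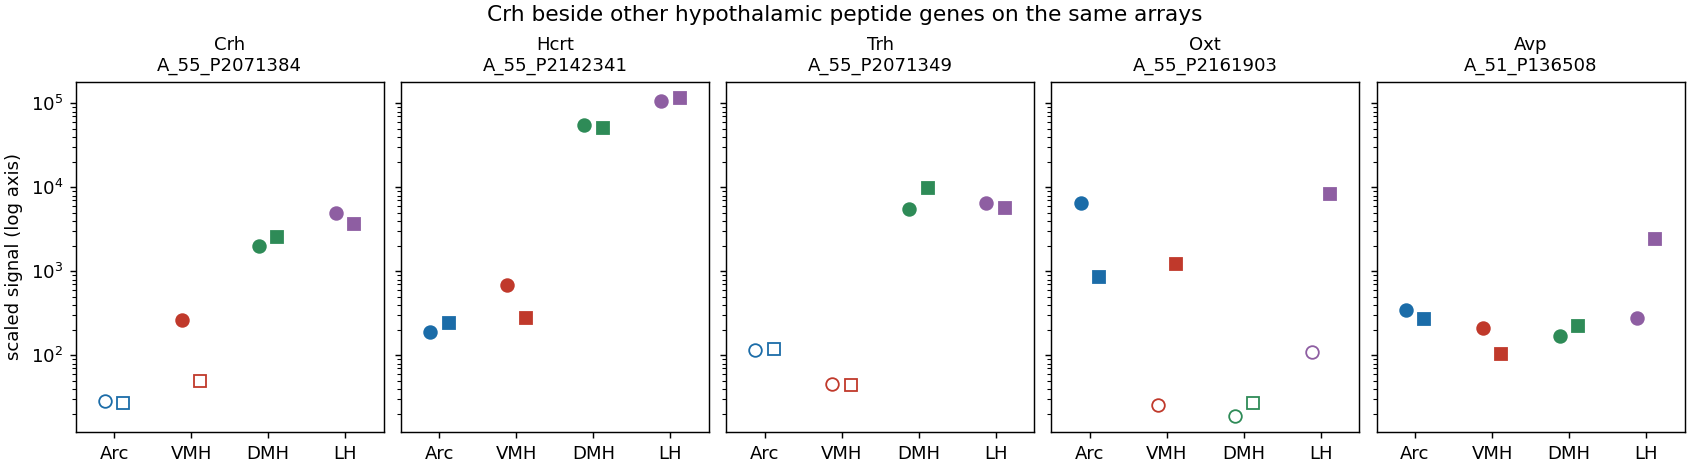
Scaled signal (log axis) of *Crh* beside other hypothalamic peptide genes on the 8 arrays, with circles for replicate 1, squares for replicate 2, and open symbols for spots not well above background. *Hcrt* and *Trh* were bright on all DMH and LH arrays, as *Crh* was, whereas *Oxt* and *Avp* were far apart between the 2 LH arrays.

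*Crh* is known from several hypothalamic neuron groups, so genes of neighbouring cells are given beside it. *Hcrt*, the orexin peptide gene of lateral hypothalamic neurons, gave 55940 and 51283 in the DMH and 105971 and 116750 in the LH, against 188 to 684 on the Arc and VMH arrays. The DMH and the LH were not called apart for *Hcrt* (log2 difference −1.05, adjusted p = 0.290). *Trh*, the thyrotropin-releasing hormone gene of the PVN and other sites, gave 5586 and 9818 in the DMH and 6519 and 5690 in the LH, against 43.8 to 119 elsewhere. Both genes were therefore bright on the same 4 arrays as *Crh*.

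Of 7 PVN marker probes, 5 were tested and 2 were called, *Otp* highest in the Arc and *Trh* highest in the DMH. *Sim1*, a defining transcription factor of the PVN, was well above background on 0 arrays. *Oxt*, the oxytocin gene of PVN and supraoptic neurons, gave 6559 and 848 in the Arc, 109 and 8332 in the LH, 25.4 and 1242 in the VMH, and 19.0 and 27.0 in the DMH. It was well above background on only 4 arrays, which did not include the DMH arrays or VMH replicate 1. *Avp*, the vasopressin gene, gave 105 to 351 on 7 arrays and 2432 on LH replicate 2. The highest *Oxt* and *Avp* signals were thus on LH replicate 2, the LH array with the lower *Crh* signal, and the summed signal of the PVN list was 6851 to 10919 in the DMH, 7602 to 17381 in the LH, 3285 to 9147 in the Arc, and 718 to 1849 in the VMH. The part of cells from a neighbouring nucleus in the *Crh* levels was not tested on the arrays, and the RT-PCR check of the dissection is not analysed here.

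The urocortin genes encode the other ligands of the family, and no level could be given for any of them. *Ucn* signals ranged from 18.7 to 28.4 over the 8 arrays, *Ucn2* signals from 20.1 to 41.1, and *Ucn3* signals from 22.2 to 69.0. None of these probes was well above background on any array, so the nuclei were not compared. *Ucn3*, which is known from neurons near the fornix and in the medial amygdala, had its highest signals on LH replicate 1 (69.0) and VMH replicate 2 (65.6), with 31.3 and 31.8 on the other array of each nucleus. At this signal over background, a low level of a urocortin RNA was not detectable, which does not show that the RNA was absent.

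*Crhr1*, the receptor with high affinity for CRH, was represented by 2 probes, which both had their highest mean in the Arc and their lowest in the VMH. Probe A_51_P229163 gave 755 and 816 in the Arc (785 ± 43.6, SD, n = 2) and 814 and 442 in the LH, with 409 and 266 in the DMH and 182 and 90.9 in the VMH. Probe A_55_P1997609 gave 462 and 521 in the Arc (492 ± 41.7, SD, n = 2) and 281 and 165 in the LH, with 193 and 137 in the DMH and 29.6 and 21.9 in the VMH. On both probes the VMH arrays lay below all others. *Crhr1* was well above background on VMH replicate 1 with the first probe and on neither VMH array with the second. The LH arrays of the first probe overlapped the Arc arrays, and those of the second overlapped the DMH arrays and lay below the Arc arrays.

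Markers of other cells also differed between the Arc and the VMH. Of 8 tanycyte and ependymal probes, 6 were tested and 5 were called and highest in the Arc, where the list summed to 8891 to 9615 against 2453 to 3252 elsewhere. Of 8 astrocyte probes, 7 were tested and 2, both of *Gfap*, were called and highest in the Arc. The list summed to 17212 to 23558 in the Arc and 18088 to 28159 elsewhere. *Aldh1l1*, *Slc1a3*, and *Gja1*, not called by the F-test, had their lowest means in the Arc. These were 3825, 4489, and 598, against 6545, 6458, and 638 in the VMH. Of 8 neuron probes, 3, all of *Rbfox3*, were called and highest in the VMH. The list summed to 227291 to 252153 in the VMH and 166882 to 213322 elsewhere. LH replicate 1, at 213322, lacked *Stmn2*, which carried an outlier mark there and gave 16772 to 31822 on the other arrays. The sums therefore do not set the VMH apart from LH replicate 1. The part of these cells in the *Crhr1* and *Crhr2* levels was not tested.

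The Arc exceeded the VMH by 6.11-fold on the first *Crhr1* probe (log2 2.61 ± 0.43, SE, adjusted p = 0.0176) and by at least 4.73-fold on the second (log2 4.27 ± 0.33, SE, adjusted p = 0.00122). The LH exceeded the VMH by 4.67-fold on the first probe (adjusted p = 0.0338) and by at least 2.07-fold on the second (fitted log2 difference 3.08, adjusted p = 0.00514). The p-values of the second probe belong to the fitted differences, which include VMH background signals, and its bounds were not tested. The folds of the first probe include VMH replicate 2, on which it was not measured. Without that array, the log2 difference was 2.11 for the Arc minus the VMH and −1.72 for the VMH minus the LH. The DMH exceeded the VMH by at least 1.56-fold on the second probe (fitted log2 difference 2.67, adjusted p = 0.0112) and was not called on the first (log2 1.36, adjusted p = 0.243). The probes therefore differed in the call for the DMH and not in its direction.

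No comparison among the Arc, the DMH, and the LH was called for *Crhr1*. The Arc minus the LH was 0.39 on the log2 scale with the first probe (95% interval −0.63 to 1.41, adjusted p = 0.607) and 1.19 with the second (95% interval 0.42 to 1.96, adjusted p = 0.0683). The Arc minus the DMH was 1.25 with the first probe (adjusted p = 0.333) and 1.60 with the second (adjusted p = 0.0865). The last of these was called without LH replicate 1 or LH replicate 2 (0.0348 each), with quantile normalization (0.0497), and in a fit of the arrays of these nuclei (0.0480), and the Arc minus the LH on the second probe was called without LH replicate 1 (log2 1.57, adjusted p = 0.0266).

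Several calls against the VMH were lost in fits that left out an array, also where the size of the difference was kept. On the first *Crhr1* probe, the call between the Arc and the VMH was lost without Arc replicate 1 (0.110), Arc replicate 2 (0.115), or VMH replicate 2 (0.0885), and that between the LH and the VMH was lost without any array but LH replicate 2 (0.0563 to 0.145), without a filter on dim probes (0.0563), and in a fit of the arrays of these nuclei (0.138). On the second probe, with signals under the lowest measured signal of an array set to it, the log2 difference of the VMH was −0.64 from the DMH (adjusted p = 0.482) and −1.05 from the LH (0.106), and the call for the DMH was also lost without DMH replicate 1 (0.0869), VMH replicate 1 (0.0598), or VMH replicate 2 (0.0847) and with the normexp background correction (0.0667).

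*Crhr2*, the receptor of urocortin 2 and urocortin 3 and a receptor long known from the VMH, was the member that was well above background on all 8 arrays. It gave 1474 and 1521 in the VMH (1498 ± 33.4, SD, n = 2) and 950 and 1185 in the LH (1068 ± 166, SD, n = 2). It gave 358 and 411 in the Arc (384 ± 37.8, SD, n = 2) and 354 and 422 in the DMH (388 ± 47.9, SD, n = 2). The VMH arrays were the highest, the LH arrays lay between them and the rest, and the Arc and DMH arrays overlapped.

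The *Crhr2* level in the VMH was 3.90-fold that in the Arc (log2 1.97 ± 0.22, SE, adjusted p = 0.00444) and 3.88-fold that in the DMH (log2 1.95, adjusted p = 0.00803). In the LH it was 2.77-fold that in the Arc (log2 1.47, adjusted p = 0.00947) and 2.75-fold that in the DMH (log2 1.46, adjusted p = 0.0399). The VMH and the LH differed by 1.41-fold, which was not called (log2 0.50, 95% interval −0.01 to 1.01, adjusted p = 0.249), and the Arc minus the DMH was −0.01 (95% interval −0.52 to 0.50). The order was thus VMH, LH, and then the Arc and the DMH, in which neither the first pair nor the last was called.

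For *Crhr2*, the call between the VMH and the Arc remained in every fit that left out an array. That between the DMH and the LH was lost without Arc replicate 1 or 2 (0.0911 each), DMH replicate 1 (0.221), DMH replicate 2 (0.123), or VMH replicate 1 or 2 (0.0917 each), without scaling (log2 −1.14, adjusted p = 0.179), without a filter on dim probes (0.0765), and in a fit of the arrays of these nuclei (0.230). The call between the VMH and the DMH was lost without DMH replicate 1 (0.0686), VMH replicate 1 (0.0636), or VMH replicate 2 (0.0653), and that between the Arc and the LH without Arc replicate 1 (0.0830) or Arc replicate 2 (0.0532) and in a fit of the arrays of these nuclei (0.0626).

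*Crhbp*, the gene of the binding protein, was measured on the arrays of the DMH and the LH only. It gave 355 and 342 in the DMH (349 ± 8.96, SD, n = 2) and 580 and 503 in the LH (541 ± 54.5, SD, n = 2). It gave 28.9 and 25.9 in the Arc and 113 and 79.6 in the VMH, none of them well above background. Every DMH and LH array was thus above every Arc and VMH array, and the LH arrays were above the DMH arrays.

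The *Crhbp* level in the DMH was at least 3.08-fold that in the Arc (fitted log2 difference 3.67, 95% interval 3.11 to 4.23, adjusted p = 0.00111). It was at least 3.35-fold that in the VMH (fitted log2 difference 1.88, adjusted p = 0.0120). In the LH it was at least 4.77-fold that in the Arc (fitted log2 difference 4.30, adjusted p = 0.000410) and at least 5.19-fold that in the VMH (fitted log2 difference 2.51, adjusted p = 0.00346). The LH and the DMH differed by 1.55-fold, which was not called (log2 0.63, 95% interval 0.07 to 1.19, adjusted p = 0.276). The fit also called the Arc against the VMH (log2 −1.80, adjusted p = 0.00792), but neither nucleus had a measured level, so no fold is given. That difference was 0.12 (adjusted p = 0.857) with signals under the lowest measured signal of an array set to it, and −0.41 (adjusted p = 0.242) with the normexp background correction. It also lost the call without Arc replicate 1 (0.0601), Arc replicate 2 (0.0691), or VMH replicate 1 (0.0560). The call between the VMH and the DMH was lost without DMH replicate 1 (0.0920), DMH replicate 2 (0.0789), or VMH replicate 2 (0.0730).

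**Figure D3:**
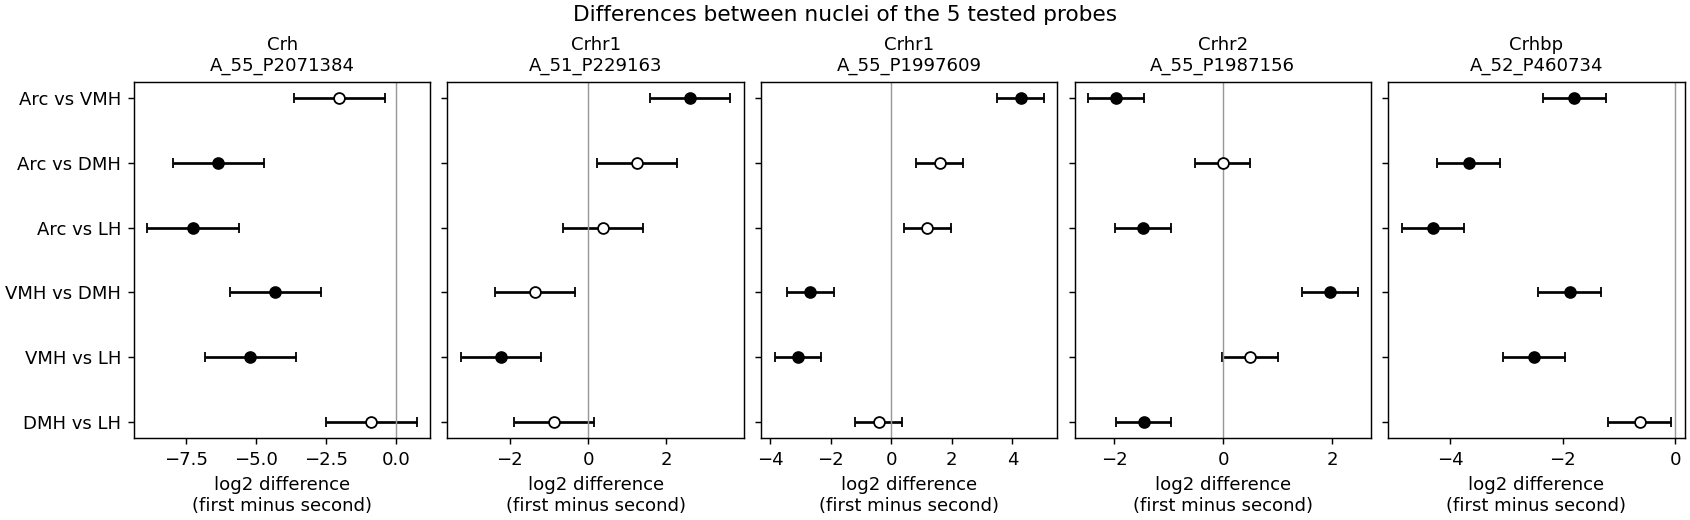
Log2 difference (first nucleus minus second) of the 5 tested member probes in the 6 comparisons, with 95% intervals from the limma fit and filled symbols where the adjusted p was under 0.05. The *Crh* and *Crhbp* differences of the Arc and the VMH from the DMH and the LH lay below 0 and those of *Crhr1* between the Arc and the VMH above 0, while *Crhr2* between the Arc and the DMH lay at 0.

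Set out by comparison, the 5 tested probes moved in different directions. Between the Arc and the VMH, both *Crhr1* probes were higher in the Arc and *Crhr2* higher in the VMH. With *Crhbp*, whose call compares signals not measured in either nucleus, these were 4 calls beside 5.93% of all tested probes. Between the Arc and the DMH, the 2 called probes, *Crh* and *Crhbp*, were higher in the DMH, beside 1.26% of all tested probes. Between the Arc and the LH, *Crh*, *Crhbp*, and *Crhr2* were higher in the LH, 3 calls beside 9.34%.

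Between the VMH and the DMH, *Crh*, *Crhbp*, and the second *Crhr1* probe were higher in the DMH and *Crhr2* higher in the VMH, 4 calls beside 2.04%. Between the VMH and the LH, *Crh*, *Crhbp*, and both *Crhr1* probes were higher in the LH, 4 calls beside 5.28%. Between the DMH and the LH, *Crhr2* was called, higher in the LH, beside 0.924%. These comparisons share arrays, so their counts are not independent of each other.

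The size of a difference depended on the treatment of background wherever a nucleus was dim. With the normexp background correction, *Crh* gave log2 differences from the DMH and the LH of −3.80 and −4.62 for the Arc and −2.92 and −3.73 for the VMH, and *Crhbp* gave −1.34 and −1.77 for the Arc and −0.93 and −1.36 for the VMH, all still called. The *Crhr1* probes gave 1.62 and 1.74 for the Arc minus the VMH and −1.32 and −1.11 for the VMH minus the LH, also still called. *Crhr2*, bright in every nucleus, moved by less than 1.5-fold in its called comparisons under every alternative run.

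The 250 bases before the annotated start are shown for *Crhr2* and *Crhbp*, which were both measured in the LH and DMH and differed in direction between the VMH and the DMH. They come from RefSeq annotation on the mouse build GRCm38.p6, and 5 of the 7 members matched an entry of the promoter table used here (not *Crh* and *Ucn2*). Both genes lie on the minus strand, *Crhr2* at chr6:55133017-55133266 and *Crhbp* at chr13:95444832-95445081, and both sequences read 5′ to 3′ along the gene. Capitals mark TATAAA, the TATA box, in *Crhr2* and the reverse complement of TGACG, the half-site of the cyclic AMP response element, in *Crhbp*.
*Crhr2*: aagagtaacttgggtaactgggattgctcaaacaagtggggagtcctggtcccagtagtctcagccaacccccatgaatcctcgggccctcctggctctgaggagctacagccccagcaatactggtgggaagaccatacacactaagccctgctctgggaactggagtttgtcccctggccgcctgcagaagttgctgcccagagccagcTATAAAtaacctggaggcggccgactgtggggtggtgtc
*Crhbp*: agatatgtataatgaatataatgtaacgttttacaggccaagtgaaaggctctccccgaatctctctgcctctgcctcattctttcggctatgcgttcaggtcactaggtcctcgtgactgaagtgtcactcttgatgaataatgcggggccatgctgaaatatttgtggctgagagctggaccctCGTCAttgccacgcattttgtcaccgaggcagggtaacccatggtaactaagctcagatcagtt
The motifs TGACG and TATAAA were searched on both strands. The TATAAA of *Crhr2* starts at base −39 and the TGACG match of *Crhbp* at base −64, counted back from the start. TATAAA was found in 12.4% and TGACG in 17.8% of 32851 promoter windows of the same length. The *Ucn* window held 2 overlapping TGACG matches, 1 on each strand, the *Ucn3* and *Crhr1* windows held neither motif, and a match is a description of letters and not of a bound site.

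The named genes most like each measured member were those with the smallest root mean square difference in log2 signal over the 8 arrays, after the mean of each probe was subtracted. For *Crh*, they were *Nts*, which encodes neurotensin, at 1.06, *Nrn1*, which encodes neuritin, at 1.06, and *Hcrt* at 1.21. For *Crhbp*, they were *Htr2c*, a serotonin receptor gene, at 0.34, *Nkd1* at 0.40, and *Chrm2*, a muscarinic receptor gene, at 0.49. For *Crhr2*, they were *Prim2* at 0.26, *Fgf1*, a fibroblast growth factor gene, at 0.28, and *Gm2694* at 0.28. For the brighter *Crhr1* probe, they were *Aqp6* at 0.34, *Cd1d1* at 0.34, and *Tmem106a* at 0.36. This distance grows with the span of a probe, so distances of different members are not compared, and it includes background signals where a member was not measured.

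Other genes of the pathway were taken from 4 lists. Of 65 tested probes, 15 (23.1%) differed among the nuclei, beside 8.34% of all tested probes, namely 3 of 11 for peptide processing, 5 of 35 for receptor signalling, 1 of 10 for glucocorticoid feedback, and 6 of 9 for the partners of the stress axis. The 15 became 9 without Arc replicate 1, VMH replicate 1, or VMH replicate 2, 7 without Arc replicate 2, and 10 without scaling, and 22 with trended and robust moderation. The median span between the highest and the lowest nucleus was 0.67, 0.66, 1.15, and 4.45 on the log2 scale in these lists, against 0.65 over all tested probes. The list of partners holds *Npy*, *Pomc*, and *Adcyap1*, which also served as markers of the Arc and the VMH.

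The peptide processing list holds enzymes and granule proteins that cut and store peptides such as CRH. *Pcsk1*, a prohormone convertase gene, gave 2839 and 3048 in the LH against 990 to 1830 on the other arrays (adjusted p = 0.0140). *Chga*, a granule protein gene, gave 15857 and 13241 in the VMH against 4636 to 9586 elsewhere (adjusted p = 0.0481). One *Pcsk2* probe, of another convertase gene, was lowest in the Arc at 8621 and 11772 and gave 24368 and 22579 in the VMH, 21563 and 24180 in the LH, and 13782 and 17220 in the DMH (adjusted p = 0.0495), while the other was not called (0.481). The remaining tested probes of this list did not pass the F-test.

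The receptor signalling list runs from the G protein to cyclic AMP and arrestin. *Adcy7*, an adenylyl cyclase gene, gave 1474 and 1815 in the DMH and 1407 and 1728 in the LH against 333 to 555 in the Arc and the VMH (adjusted p = 0.00543). *Arrb1*, a gene of β-arrestin, which uncouples receptors, was lowest in the Arc at 10951 and 12141 and highest in the LH at 34989 and 31480 (adjusted p = 0.0126). One of 3 probes of *Gnas*, the gene of the stimulatory G protein, gave 742 and 574 in the Arc and 28.5 and 18.2 in the VMH (adjusted p = 0.00287), a second was also lowest in the VMH (adjusted p = 0.0374), and the last was not called (0.982). The *Gnas* locus gives rise to several transcripts.

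Glucocorticoid feedback acts on the CRH system through the receptor genes *Nr3c1* and *Nr3c2*. One *Nr3c1* probe was highest in the Arc, at 955 and 840, followed by 756 and 924 in the VMH and 439 and 682 in the DMH, and lowest in the LH, at 233 and 275 (adjusted p = 0.0205). The other *Nr3c1* probe did not pass (0.0859) and had its highest signals in the VMH, at 6310 and 6383, with 4128 and 4700 in the Arc, and *Nr3c2* did not pass either (0.573). Among the partners of the axis, *Pomc*, the precursor of corticotropin, gave 40403 and 43108 in the Arc against 1003 to 4049 elsewhere (adjusted p = 0.000306). *Npy*, a peptide gene of Arc neurons, gave 26974 and 23813 there against 387 to 973 elsewhere (adjusted p = 0.000306). *Adcyap1*, which encodes the peptide PACAP, gave 17586 and 18972 in the VMH against 637 to 2821 elsewhere (adjusted p = 0.00209), and *Avp* did not pass the F-test (0.315).

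**Figure D4:**
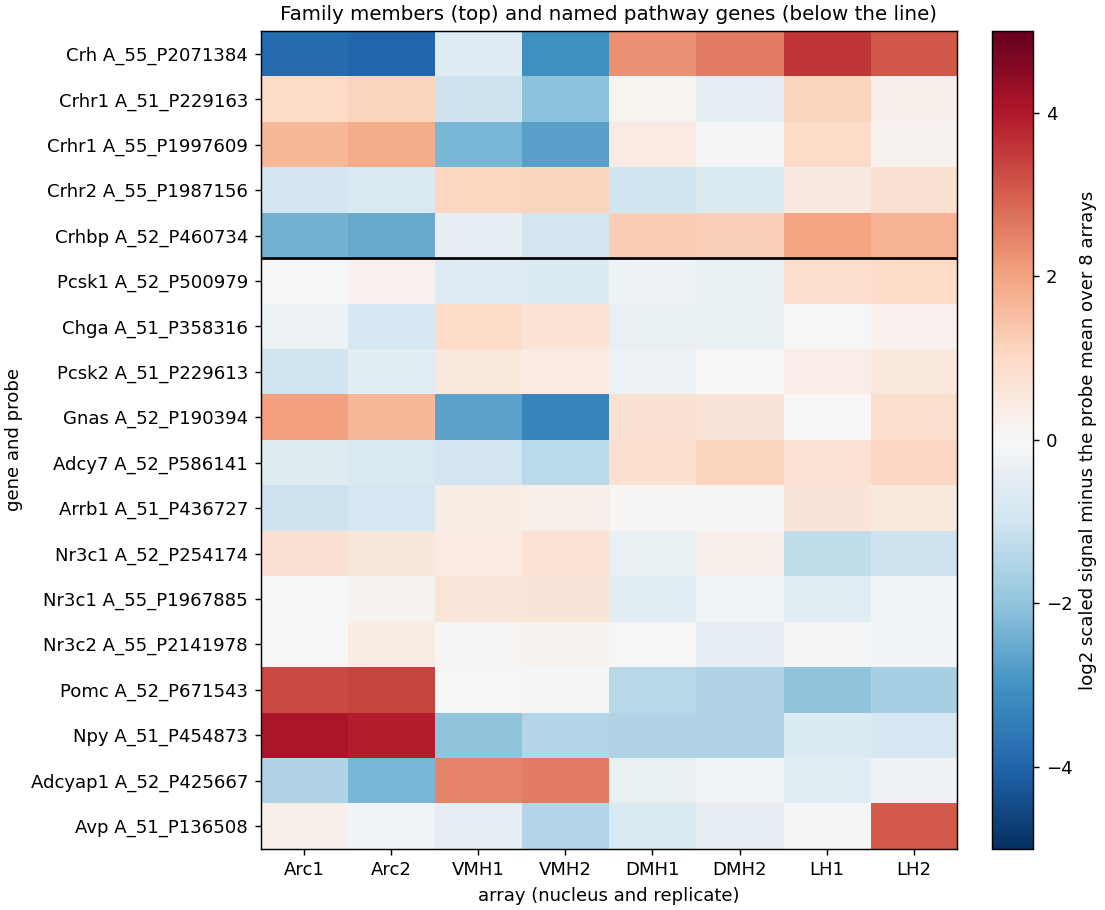
Log2 scaled signal of the member probes and of the named pathway probes on the 8 arrays, each row centred on its own mean. *Crh*, *Crhbp*, and *Adcy7* were high on the DMH and LH arrays, *Pomc* and *Npy* on the Arc arrays, and *Adcyap1* on the VMH arrays. *Crhr2* was highest on the VMH arrays, followed by the LH arrays.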

How the data were processed

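The authors amplified the RNA of each nucleus as a whole transcriptome (WTA2 kit), labelled it, hybridised it to 8 arrays on 1 slide, and read each spot with Agilent Feature Extraction (10.7.3.1 in the file headers, 11.5.1.1 in the labels). The deposited processed signal is an intensity in 1 color after background subtraction, not scaled between arrays. The files hold the red channel, and the labels give Cy3 but name a Cy5 reagent. Amplification and background subtraction make dim signals the least certain, and the number of arrays limits the precision. The share of probes well above background was 46.3% to 52.1% per array.

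Here, outlier spots were dropped, spots of a probe averaged, each array divided by its 75th percentile, and log2 taken. Of 28390 probes with a RefSeq accession, 26762 (94.3%) were named through the mouse annotation. The 28894 probes measured on both arrays of 1 or more nuclei entered a limma fit (version 3.58.1, R 4.3.3) with a mean for each nucleus, 4 residual and 3.02 prior degrees of freedom, and Benjamini-Hochberg adjustment over all of them at 0.05. The methods give no test for the arrays. For a nucleus with no array well above background, "at least" folds use the lowest measured signal of each array. Named were all member probes, the 3 called probes of each pathway list with the smallest p, and *Pomc*, *Avp*, *Nr3c1*, and *Nr3c2*. The PVN, oligodendrocyte, and nucleus marker lists gave ranges and counts, with *Hcrt*, *Trh*, *Otp*, *Sim1*, *Oxt*, and *Avp* set beside *Crh*. Members and lists were chosen with earlier results of these data known. The fit was tested on simulated data. Alternatives were no scaling, quantile normalization, normexp with an offset of 50, the deposited table of all arrays, no filter or one on all 8 arrays, signals under the lowest measured signal of an array set to it, flagged spots kept, trended and robust moderation, the replicate number as a block, only the nuclei compared, each array left out, and the one-way and Tukey-Kramer tests of the study's general statistics.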

Additional observations from a re-analysis of the deposited data

How the results depend on the processing

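Over the 30 differences of the member probes (6 comparisons of 5 probes), 546 values under the alternatives were computed, of which 485 kept direction and side of the threshold, 51 lost the call, 6 gained it, and 4 turned. The 4 that turned were *Crhbp* in the Arc minus the VMH with signals under the lowest measured one set to it (0.12), *Crhr1* (probe A_51_P229163) in the Arc minus the LH without LH replicate 2 (−0.052, in a range of −0.052 to 0.83 over the fits that left out an array), and *Crhr2* in the Arc minus the DMH without Arc replicate 1 (0.090) and without DMH replicate 2 (0.12), in a range of −0.14 to 0.12. Of 18 called differences, 8 were called in each of the 8 fits that left out an array. Leaving out arrays gave 1 to 3 called member probes between the Arc and the DMH, 2 to 4 between the Arc and the LH, 2 to 4 between the Arc and the VMH, 0 to 1 between the DMH and the LH, 0 to 4 between the VMH and the DMH, 3 to 4 between the VMH and the LH, 4 to 5 in the F-test, and 7 to 17 pathway probes, against 15. The other alternatives gave 10 (no scaling) to 22 (trended and robust moderation) pathway probes.

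With Benjamini-Hochberg adjustment over probes, the Tukey-Kramer test called 0 member probes in each of the 6 comparisons and the one-way test called 2 over the 4 nuclei. Without that adjustment, they called 1 to 4 and 5. A filter on all 8 arrays kept *Crhr2* alone, which left 1 call over the nuclei, 1 between the Arc and the VMH, 1 between the Arc and the LH, 1 between the VMH and the DMH, 1 between the DMH and the LH, 0 between the Arc and the DMH, and 0 between the VMH and the LH. With only the nuclei compared, 2 were called between the VMH and the LH. The call of *Crhr2* between the DMH and the LH (1 probe) became 0 without a filter, without scaling, with only those nuclei, and with the replicate block. The cause was not tested.

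The replicate number coincides with the row of the slide, and deviations of arrays with the same number correlated at −0.03 to 0.26, so the arrays were not taken as paired. With the replicate number as a block, *Crhr2* between the DMH and the LH had an adjusted p of 0.0511, and no other of the 30 differences, called or not, changed its side of the threshold. Signal over background limits the urocortins, *Crh* and *Crhbp* in the Arc, and *Crh*, *Crhr1*, and *Crhbp* in the VMH.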
